A study of Zea mays with 15 samples.

Results

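Libraries of maize leaf RNA differed between the numbers in their titles as well as between treatments, and the collections C_3 and UV_9 stood on the same side for clock and heat shock genes. A collection is used here as the set of libraries that share a treatment and the number at the end of their title. C_3 held 2 libraries, from zones 1 and 3 of control leaves, and UV_9 held 3, from zones 1, 2 and 3 of UV-B leaves. These 5 libraries were set against the 9 libraries of C_4, C_7, UV_7 and UV_8, out of 15 in the series. The remaining library, UV_7 zone 3, had 728 reads and was left out. The 5 were chosen by measured values, the read counts of clock and heat shock genes, so every level and difference between the 5 and the 9 describes that choice and carries no p-value.

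All plants were the inbred line B73, grown outdoors under plastic filters, with 8 W/m2 of UV-A reaching them in both treatments. Control plants received 0.35 W/m2 of UV-B and UV-B plants 1.5 W/m2. Leaf 4 was cut 3 days after it emerged, and zones 1, 2 and 3 are the segments 0 to 1, 1 to 2 and 2 to 3 cm from its base, where cells divide, then expand, then green. The labels say that the experiment was repeated 3 times and number the replicates, but they do not say what the title numbers stand for, nor at what time of day or temperature leaves were cut. Replicates 1, 2 and 3 are numbers 3, 4 and 7 in controls and 7, 8 and 9 under UV-B, and nothing in the labels ties C_3 to UV_9.

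The plant circadian clock is a loop of transcription factors that repress each other in turn, so that each gene peaks at its own time of day. GIGANTEA is a clock output protein with a peak late in the day, and pseudo-response regulators are repressors that peak in sequence through the day. Heat shock proteins are chaperones that hold, refold or pull apart damaged proteins. Their genes are switched on by heat shock factors when proteins unfold, as in warm tissue. Genes of light harvesting are under both light and clock control, and in the maize leaf they also rise from the base toward the tip as chloroplasts form. Maize clock genes other than those named below carry no name in the sources used here.

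The 5 libraries had 1673416 to 19221143 reads. C_3 zone 3 with 2007679 reads and UV_9 zone 3 with 1673416 were the shallowest of the 14, and C_3 zone 1 with 11147867 was the shallowest of its group. Reads of all transcripts of a gene were summed, and levels are given as CPM, reads per 1000000 reads of the library after TMM scaling, which corrects library size for composition. Levels are not corrected for transcript length and are compared within a gene only. In such whole-tissue RNA, fewer cells of a type and less RNA per cell cannot be told apart. Of 39145 genes, 23899 had enough reads to be fitted. The fitted log2 difference between the 5 and the 9 held zone and treatment constant. A gene was called when this difference was at least 1 in size and the C_3 or UV_9 library lay beyond every other library of its group, the same way, in all 4 groups that held both kinds (control zones 1 and 3, UV-B zones 2 and 3).

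By this rule 423 genes were called higher in C_3 and UV_9 (1.77% of those fitted) and 480 lower (2.01%), 903 or 3.78% in all. The median difference over all fitted genes was -0.0013. The called genes included 116 that were higher and 151 that were lower by at least 4 fold, and 24 and 14 by at least 16 fold. Just inside the fold limit, between log2 sizes of 1 and 1.1, lay 115 called genes, and just outside it, between 0.9 and 1, lay 124 genes without overlap. A further 1317 genes passed the fold but overlapped in at least 1 group. With UV_7 zone 3 kept, 423 genes were called higher and 2 lower, since UV_9 cannot lie below a gene at 0 reads there, and no heat shock protein or light harvesting gene was then called. Without C_3 zone 3, where 1 group fewer had to be free of overlap, 1375 genes were called. Of the called genes, 55 higher and 91 lower ones had an informative name.

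All 3 clock genes with a name were higher in the 5 libraries. The GIGANTEA copy gigz1a (GRMZM2G107101, chromosome 8, 21104079 to 21112365 on the unnamed build of the deposited table) had 539.5 and 294 CPM in zones 1 and 3 of C_3 and 504, 474 and 343 CPM in zones 1, 2 and 3 of UV_9. In the other 9 libraries it ran from 46.3 to 139.7 CPM with a median of 62.3. The lowest of the 5 was thus above the highest of the 9, and the log2 difference was 2.59 ± 0.22 (SE, n = 5 and 9 libraries). Here and below the SE was derived from the F value of edgeR's quasi-likelihood fit. It measures only the spread between libraries, and libraries of a collection are not independent of each other.

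The other GIGANTEA copy, gigz1b (GRMZM5G844173, chromosome 3, 9306264 to 9317285), had 178 and 76.8 CPM in C_3 and 175, 139 and 96.0 CPM in UV_9. In the 9 it was at 1.16 to 16.5 CPM, median 3.54, and the log2 difference was 4.74 ± 0.31. The pseudo-response regulator PRR59 (GRMZM2G135446, chromosome 2, 141518104 to 141523326) had 59.3 and 33.6 CPM in C_3 and 56.5, 50.1 and 42.2 CPM in UV_9, against 3.48 to 16.6 CPM and a median of 7.9 in the 9. Its log2 difference was 2.61 ± 0.24. All 3 genes were lower in zone 3 than in zone 1 within C_3, within UV_9 and in the other controls. Summed over the 3 genes, C_3 had 5.60 times the mean of the other control libraries in zone 1 and 5.74 times in zone 3, and UV_9 had 9.63 times that of the other UV-B libraries in zone 2 and 9.44 times in zone 3.

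The list of CONSTANS-like genes, a family named for the flowering regulator CONSTANS of Arabidopsis, did not share this pattern. Of 6 members fitted, COL8 was called lower and none higher (2.01% and 1.77% of all fitted genes), with a list median of 0.00. COL8 (GRMZM2G114137) had 0.352 and 3.01 CPM in C_3 and 0.331, 0.902 and 8.23 CPM in UV_9, against 1.34 to 22.6 CPM in the 9, a log2 difference of -2.33 ± 0.33. Its level was higher toward zone 3 in both sets. The member conz1 was at 35.2 to 53.6 CPM in the 5 and 32.0 to 42.3 CPM in the 9.

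**Figure D1:**
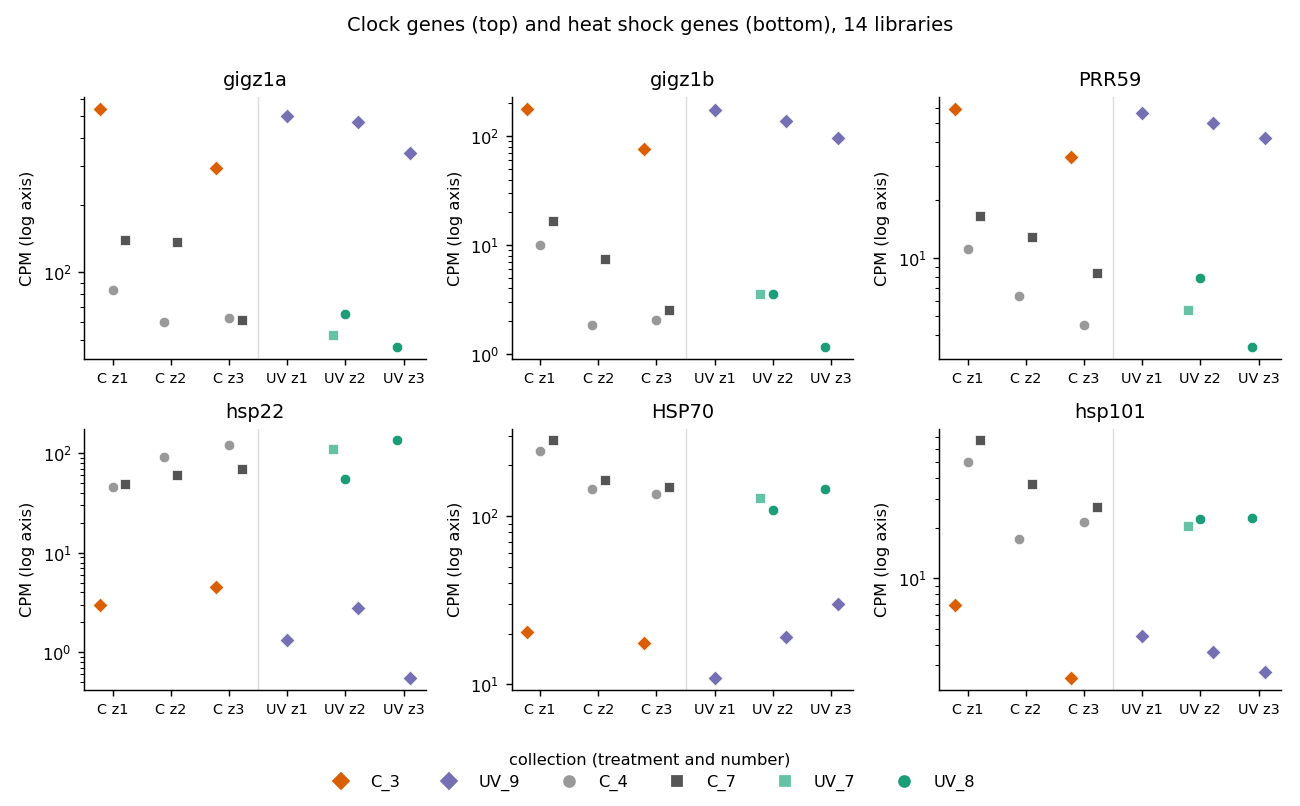
CPM on a log axis for 3 clock genes (top) and 3 heat shock genes (bottom) in each of the 14 libraries, by treatment (C, control; UV, UV-B) and zone (z1 to z3), with 1 point per library coloured by collection. Diamonds mark C_3 and UV_9, which lie above all other points for gigz1a, gigz1b and PRR59 and below all others for hsp22, HSP70 and hsp101.

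Heat shock protein genes were lower in C_3 and UV_9. Of 17 members fitted in 3 lists, 11 were called lower and none higher, where 2.01% and 1.77% of all fitted genes were. The small heat shock proteins, which bind unfolding proteins, gave 2 of 6 called lower with a median log2 difference of -1.69. HSP70 and HSP100 chaperones gave 5 of 6 with a median of -2.005, and HSP90 and HSP60 gave 4 of 5 with a median of -1.32. The fitted difference was below 0 in every member of the 3 lists, called or not.

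The small heat shock protein hsp22 (GRMZM2G007729, chromosome 4, 179852642 to 179853912) had 2.99 and 4.52 CPM in C_3 and 1.32, 2.78 and 0.548 CPM in UV_9. In the 9 libraries it was at 46.3 to 135 CPM, median 69.2. All 5 libraries were below all 9, with a log2 difference of -4.82 ± 0.34. The other called member, hsp18f, had 13.7 and 5.52 CPM in C_3 and 4.77, 2.40 and 2.74 CPM in UV_9 against 7.39 to 41.6 CPM in the 9, so that C_3 zone 1 lay within the range of libraries from other zones. Without UV_9 its log2 difference of -2.18 was -1.43, and without C_3 it was -3.11. The other 4 members were not called and were at 6.03 CPM or less in the 5, with differences from -2.20 to -0.23.

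The gene HSP70 (GRMZM2G310431, chromosome 8, 168506538 to 168509902), named for the chaperones that fold new and damaged proteins, had 20.5 and 17.6 CPM in C_3 and 10.8, 19.2 and 30.2 CPM in UV_9, against 108 to 282 CPM and a median of 145 in the 9. The log2 difference was -3.09 ± 0.28. The HSP100 gene hsp101 (GRMZM2G360681, chromosome 6, 160816569 to 160820239), whose product pulls proteins out of aggregates, had 6.95 and 2.51 CPM in C_3 and 4.53, 3.61 and 2.74 CPM in UV_9 against 17.16 to 67.2 CPM in the 9, a log2 difference of -3.01 ± 0.23. The member hsp70-5 had 1.51 to 5.11 CPM in the 5 and 12.3 to 42.2 CPM in the 9. In these 3 genes too, no library of the 5 reached any of the 9.

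The genes bip1 and bip2, for HSP70 chaperones of the endoplasmic reticulum, were called lower as well. They had log2 differences of -1.45 ± 0.19 and -1.24 ± 0.17, and bip1 was at 95.4 to 151 CPM in the 5 and 270.4 to 724 CPM in the 9. The most abundant member, hsp70-4, was not called. It was at 926 to 1821 CPM in the 5 and 1473 to 2218 CPM in the 9, a difference of -0.52 ± 0.16.

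HSP90 chaperones keep signalling proteins in a ready state. HSP90-2 (GRMZM2G012631) had 503 and 196 CPM in C_3 and 281, 228 and 173 CPM in UV_9, and 586 to 1361 CPM in the 9, with a log2 difference of -1.73 ± 0.15. HSP90-1 (GRMZM2G024668) had 91.5 and 21.6 CPM in C_3 and 30.5, 19.1 and 16.5 CPM in UV_9. In the 9 it ran from 72.1 to 489 CPM, so C_3 zone 1 overlapped libraries of other zones, and the difference was -2.82 ± 0.34. HSP82 was called at 0 to 1.27 CPM in the 5, which rests on 40 reads in all, and without C_3 its difference of -1.05 was -0.65, short of the fold limit. HSP60-1 is a name shared by 2 neighbouring genes on chromosome 5, GRMZM2G111477 and GRMZM2G458208, of which GRMZM2G111477 was called at -1.32 ± 0.22 and GRMZM2G458208 was not, at -0.92 ± 0.64. Without UV_9 the difference of GRMZM2G111477 was -0.82, short of the fold limit.

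The heat shock factors, a family that includes activators of these genes, had a median difference of 0.08 over 9 fitted members. None was called lower and 1 higher, where 2.01% and 1.77% of all fitted genes were. That member was HSF6 (GRMZM2G059851), which had 6.69 and 4.52 CPM in C_3 and 8.46, 5.94 and 3.29 CPM in UV_9 against 0 to 0.617 CPM in the 9, a log2 difference of 3.96 ± 0.40. Hsf01 was at 47.8 to 93.8 CPM in the 5 and 65.9 to 92.6 CPM in the 9, and the remaining 7 had differences of -0.84 to 0.37.

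**Figure D2:**
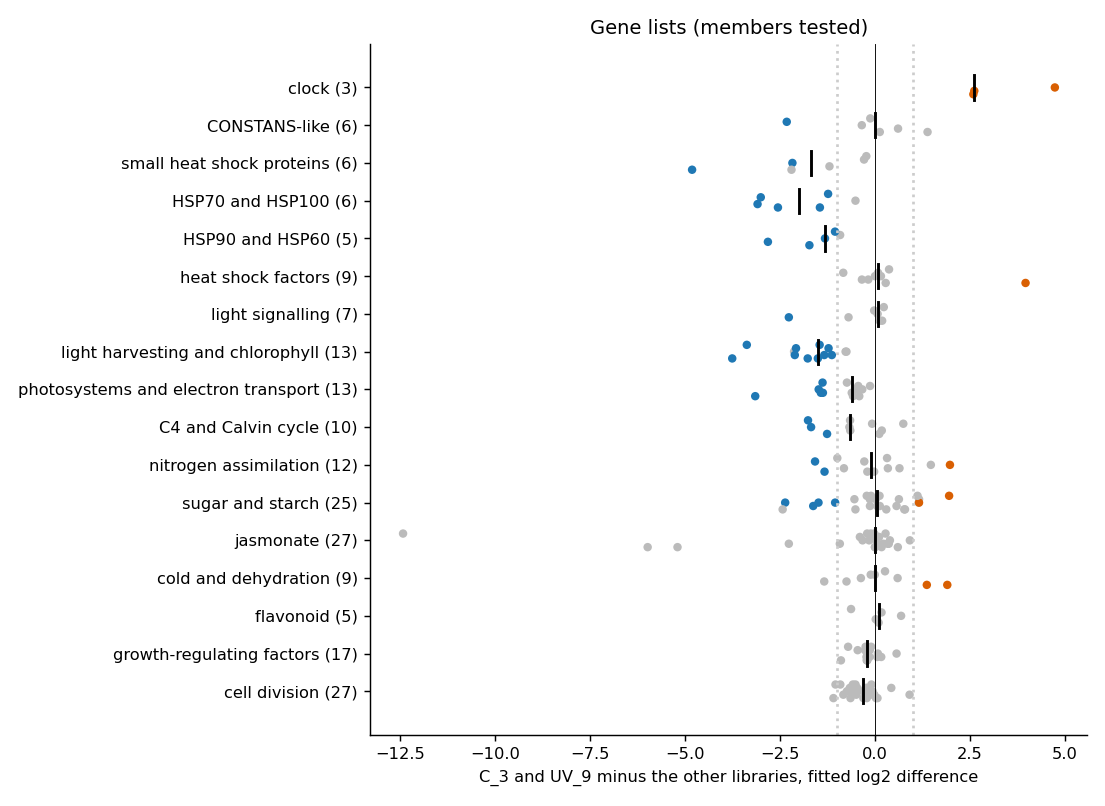
Fitted log2 difference between the 5 libraries of C_3 and UV_9 and the other 9 for each tested member of 17 gene lists, with zone and treatment held constant. Each point is a gene, orange if called higher, blue if called lower and grey if not called, black bars are list medians and dotted lines mark a difference of 1, and the far-left grey points of the jasmonate list are MPI, TIFY9 and TIFY28, with at most 2 reads in the 5 libraries.

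Genes of light harvesting and chlorophyll synthesis were also lower in the 5 libraries. All 13 had a difference below 0 and the median was -1.51. Of the 13, 10 were called lower, where 2.01% of all fitted genes were. The chlorophyll a/b-binding protein gene cab-m1 (GRMZM2G351977) had 2.29 CPM in zone 1 and 28.6 CPM in zone 3 of C_3, and 6.28, 4.66 and 16.5 CPM in zones 1, 2 and 3 of UV_9. Other libraries had 17.3 and 22.5 CPM in control zone 1, 321 and 478 CPM in control zone 3, 79.7 and 146 CPM in UV-B zone 2 and 469 CPM in UV-B zone 3. The log2 difference was -3.76 ± 0.39. The protochlorophyllide reductase gene pcr1 (GRMZM2G084958), for the light-driven step of chlorophyll synthesis, had 12.6 and 183 CPM in C_3 and 21.3, 63.5 and 98.2 CPM in UV_9 against 172 to 1499 CPM in the 9, a difference of -3.38 ± 0.25. The antenna genes lhcb5 and lhcb7 had differences of -2.08 ± 0.18 and -2.11 ± 0.21.

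The photosystem and electron transport list gave 5 of 13 called lower (2.01% of all fitted genes), a median of -0.61 and again no member above 0. Its largest difference was that of psa6 (GRMZM2G012397), at 0.704 and 23.6 CPM in C_3 and 1.61, 15.2 and 117 CPM in UV_9, against 21.2 to 321 CPM in the 9. The difference was -3.15 ± 0.50, and -4.40 ± 0.66 in C_3 against -2.37 ± 0.50 in UV_9. The photosystem I genes psan1 and psah1 and the ferredoxin gene fdx3 had differences of -1.48 ± 0.24, -1.43 ± 0.27 and -1.38 ± 0.22. In the C4 and Calvin cycle list 3 of 10 were called lower, GAPA, rbcS and rca1, with a median of -0.65, while pdk1 was at 0.74 ± 0.53 and not called.

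The transcription factor gene glk1, a GOLDEN2-like regulator of chloroplast genes, was called lower in the light signalling list. It had 0.968 and 10.6 CPM in C_3 and 0.756, 3.08 and 7.68 CPM in UV_9, against 6.83 to 30.8 CPM in the 9, a difference of -2.27 ± 0.25. The phytochromes and phot1, which sense red and blue light, had differences from -0.70 to 0.23 and were not called. Both groups of photosynthesis genes are markers of position along the leaf. With the collections as a term, 13 of 13 light harvesting and 12 of 13 photosystem members were higher in zone 3 than in zone 1. This was by edgeR's quasi-likelihood test (adjusted p under 0.05), which 31.2% of all fitted genes passed in that direction.

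Markers of the dividing base held no gene called over both collections, where 3.78% of all fitted genes were called. A count of none in lists of this size is near that share and is not read as a result. Growth-regulating factors, which keep leaf cells dividing, gave none among 17 and a median of -0.21. DNA replication and cell cycle genes gave none among 27 and a median of -0.31, with 23 of 27 below 0. In UV_9 alone 6 of the 27 were called lower and 1 higher, where 5.53% and 7.88% of all fitted genes were. In C_3 alone none was called, where 4.05% of all fitted genes were called lower and 3.21% higher. Their summed level in C_3 was 0.891 times the mean of the other libraries in zone 1 and 0.964 times in zone 3, and in UV_9 it was 0.628 times in zone 2 and 0.485 times in zone 3. The replication helicase gene MCM6 had 1.65 CPM in UV_9 zone 3 against 44.7 CPM in UV_8 zone 3, while it had 17.1 CPM in C_3 zone 3 against 35.4 and 15.1 CPM in C_4 and C_7. Light harvesting genes summed to 0.313 times the level of UV_8 in zone 3 and, in C_3, to 0.302 and 0.409 times that of the other controls in zones 1 and 3. Growth-regulating factors summed to 0.867 and 0.847 times the others in zones 2 and 3 of UV_9, with none called there. The part of position in the differences was not tested.

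**Figure D3:**
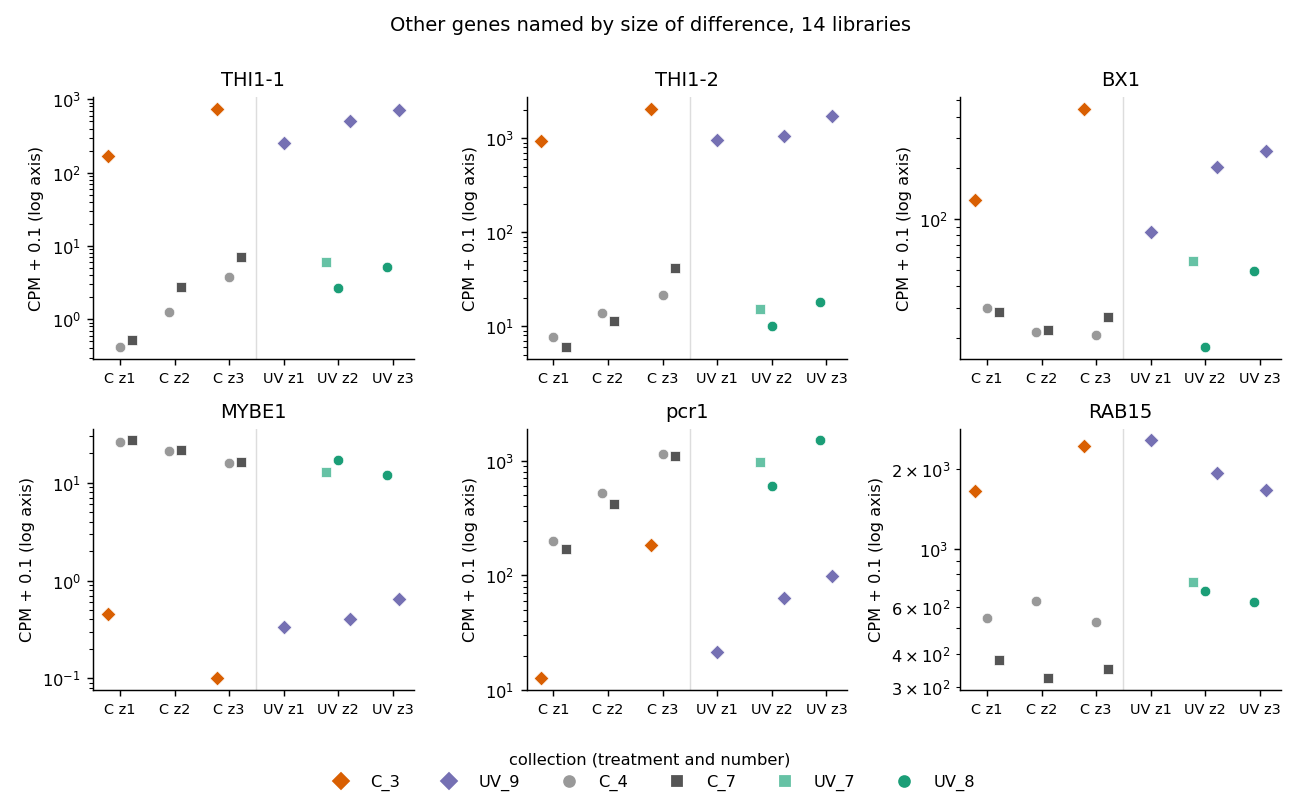
CPM plus 0.1 on a log axis for 6 further genes of the collection difference in each of the 14 libraries, by treatment and zone, with 1 point per library coloured by collection. THI1-1, THI1-2 and RAB15 are higher in the diamonds of C_3 and UV_9 than in every other library, BX1 likewise, MYBE1 is lower in all 5, and pcr1 is lower within each zone while its level climbs from zone 1 to zone 3.

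The largest differences among named genes lay outside the clock and heat shock lists. THI1-1 and THI1-2, for the enzyme that makes the thiazole part of thiamine (vitamin B1), were higher. THI1-1 (GRMZM2G018375, chromosome 8, 137677255 to 137679026) had 169 and 737 CPM in C_3 and 252, 509 and 711 CPM in UV_9. The 9 libraries had 0.319 to 7.06 CPM, median 2.68, and the log2 difference was 7.43 ± 0.32. THI1-2 (GRMZM2G074097, chromosome 3, 218917242 to 218918947) had 929 and 2046 CPM in C_3 and 955, 1066 and 1720.0 CPM in UV_9, against 5.92 to 42.0 CPM and a median of 13.7. Its log2 difference was 6.59 ± 0.25, and for both copies every library of the 5 was above every library of the 9.

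TIP4-2 (GRMZM2G108273), for an aquaporin of the vacuole membrane, had 4.75 and 10.6 CPM in C_3 and 11.1, 16.01 and 14.3 CPM in UV_9, against at most 0.709 CPM in the 9, a log2 difference of 5.21 ± 0.39. BX1 (GRMZM2G085381), which makes the indole for the defence compounds called benzoxazinoids, had 129.6 and 443 CPM in C_3 and 83.6, 202 and 249.6 CPM in UV_9 against 17.5 to 56.6 CPM in the 9, a difference of 2.73 ± 0.34. Pds (GRMZM5G815358) had 35.8 to 101 CPM in the 5 and at most 1.27 CPM in the 9, but RefSeq gives this name to more than 1 gene, so the name is uncertain. PRP (GRMZM2G049915) and the bZIP transcription factor gene bZIP111 (GRMZM2G073427) had differences of 3.23 ± 0.20 and 2.94 ± 0.20. PRP also climbed along the leaf, from 81.7 CPM in zone 1 to 2152 CPM in zone 3 of C_3 and from 145 to 2556 CPM in UV_9.

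Among the lower genes MYBE1 (GRMZM2G145041, chromosome 5, 64145457 to 64148638), of the MYB transcription factor class, had the largest difference, -5.98 ± 0.28. It had 14 reads in the 5 libraries together, 0 to 0.548 CPM, and 11.8 to 26.9 CPM in the 9. bZIP17 (GRMZM2G103647) had 0.614 to 2.74 CPM in the 5 and 6.55 to 32.0 CPM in the 9, a difference of -3.51 ± 0.45. D14a (GRMZM2G077127), named for the strigolactone receptor D14 of rice, had a difference of -2.83 ± 0.39, with -1.74 ± 0.33 in C_3 and -3.92 ± 0.33 in UV_9.

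Genes without a name also differed by much, of which 2 in each direction are given, chosen after their values were seen. GRMZM2G006287 had 1.76 to 77.3 CPM in the 5 and at most 0.229 CPM in the 9. GRMZM2G130232 had 6.53 to 25.8 CPM in the 5 and 2 reads in all of the 9. GRMZM2G014902 (chromosome 4, 32527797 to 32560791) had 0.502 to 3.43 CPM in the 5 and 107 to 253 CPM in the 9, a log2 difference of -6.56 ± 0.26. GRMZM2G304091 had 8 reads in the 5 libraries and 4.51 to 20.2 CPM in the 9, a log2 difference of -5.95 ± 0.47 that was -2.21 in reads unique to a transcript.

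Metabolic and stress lists were mixed, beside 1.77% of all fitted genes called higher and 2.01% lower. In the cold and dehydration list 2 of 9 were called higher. RAB15 (GRMZM2G165901), of a family induced by drought and abscisic acid, had 1659 and 2448 CPM in C_3 and 2574, 1939 and 1674 CPM in UV_9, against 322 to 749 CPM in the 9, a difference of 1.90 ± 0.22. DREB2A (GRMZM2G006745), a transcription factor of drought and heat responses, had 14.2 to 25.8 CPM in the 5 and 4.40 to 8.69 CPM in the 9, a difference of 1.36 ± 0.23. The list median was -0.0065, and dhn2 was at -0.75 ± 0.19.

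In the sugar and starch list 2 of 25 were called higher and 4 lower, with a median of 0.06. The starch phosphorylase gene pho1 had 252.9 and 94.9 CPM in C_3 and 177, 133 and 98.2 CPM in UV_9 against 24.5 to 73.1 CPM in the 9, a difference of 1.95 ± 0.15, and the sucrose transporter gene sut4 was higher by 1.16 ± 0.11. The starch synthase gene GBSSIIa was lower, at -1.63 ± 0.20, and so was the invertase gene ivr2, at -1.49 ± 0.23. In nitrogen assimilation 1 of 12 was called higher and 2 lower. The 2 were NNR1 and NIR, for nitrate and nitrite reductase, at -1.58 ± 0.24 and -1.33 ± 0.26. Without UV_9 their differences were -1.055 and -1.08. The higher gene was the copy GRMZM2G041631 of Nrt1.1, a nitrate transporter name that 2 genes carry, at 0.704 to 3.29 CPM in the 5 and at most 0.478 CPM in the 9. The flavonoid list, with genes of UV-absorbing pigments, had no called member among 5 and a median of 0.09. With 3.78% of all fitted genes called, that count is not read as a result.

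Taken apart by treatment, C_3 was set against C_4 and C_7, and UV_9 against UV_7 and UV_8. Both log2 differences came from 1 fit of all 14 libraries with shared zone terms, so they are not independent. Only the check for overlap used the libraries of 1 treatment at a time. C_3 alone gave 1735 genes (7.26%), 767 higher (3.21%) and 968 lower (4.05%). UV_9 alone gave 3205 genes (13.4%), 1883 higher (7.88%) and 1322 lower (5.53%), each with the same fold and no overlap in 2 groups. Without C_3 zone 1 or C_3 zone 3, with 1 group left to compare, C_3 gave 4791 and 2662 genes. Higher in both were 295 genes, 38.5% of the C_3 list and 15.7% of the UV_9 list. Lower in both were 345, 35.6% and 26.1%. Of the C_3 genes, 29 higher ones were called lower in UV_9 and 73 lower ones were called higher. The 2 sets of differences had a Pearson correlation of 0.455 across the 15506 genes with a mean of at least 5 CPM and 0.243 across all fitted genes, which are not independent replicates, and the collections were chosen for a shared difference. All 3 clock genes were called higher and 5 of 6 HSP70 and HSP100 genes lower in each collection on its own, and in light harvesting 9 of 13 were called lower in C_3 and 10 of 13 in UV_9.

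**Figure D4:**
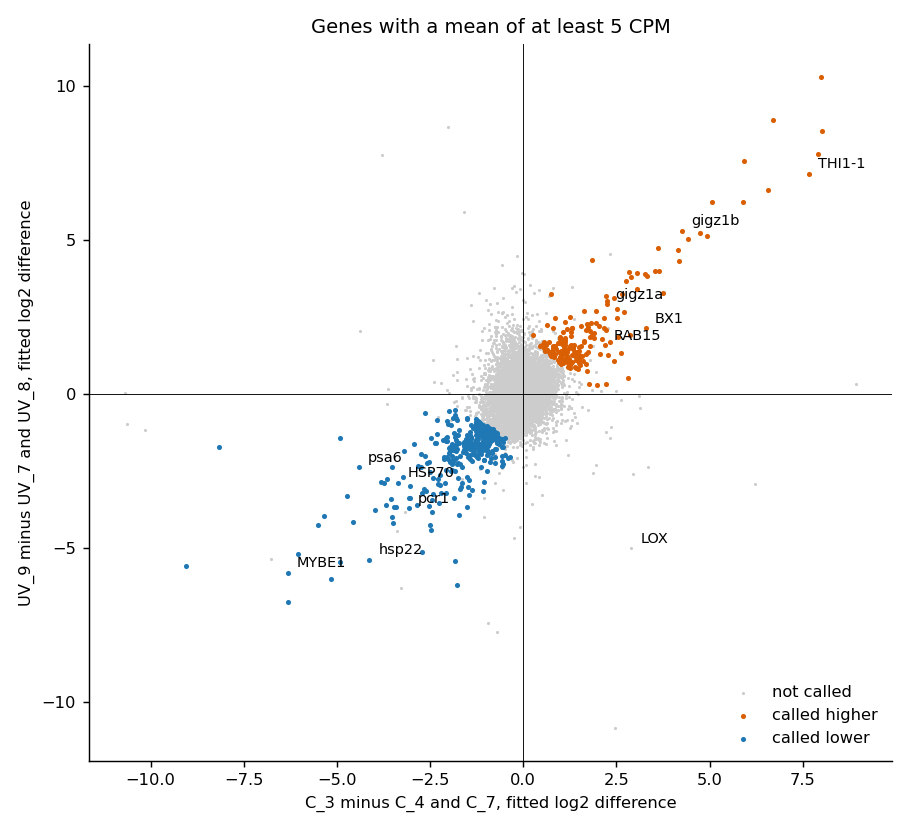
Fitted log2 difference of C_3 from the other control libraries (horizontal) against that of UV_9 from the other UV-B libraries (vertical) for 15506 genes with a mean of at least 5 CPM, with called genes in orange and blue and others in grey. A call needed the same direction in C_3 and in UV_9, so the place of called genes at the top right or bottom left follows from the rule. THI1-1 and gigz1b lie at the top right and MYBE1 and hsp22 at the bottom left. LOX, which was not called, lies at 2.90 in C_3 and -4.995 in UV_9.

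Whether the difference of UV_9 was the same as that of C_3 was tested as an interaction with treatment by edgeR's quasi-likelihood test. For clock and heat shock genes a like difference in both collections was part of the choice, so the test is not read for them. At an adjusted p under 0.05, 57 genes (0.239%) passed, 19 with a higher difference in UV_9 (0.0795%) and 38 with a lower one (0.159%). Of the 38, 27 were higher in C_3 and lower in UV_9, and 11 had the same sign in both. Of the 19, 17 were lower in C_3 and higher in UV_9. The interaction values of gigz1a, HSP70 and hsp22 were 0.70 ± 0.37, 0.48 ± 0.49 and -1.24 ± 0.58, as a description. The count rested on single libraries, with 6 genes without C_3 zone 3 or without UV_9 zone 2, 8 without UV_8 zone 3 and 12 without C_3 zone 1. It was 22 to 29 without UV_9 zone 3, C_4 zone 3, C_7 zone 1, C_7 zone 3 or UV_9 zone 1, 89 without C_4 zone 2, and 18 in unique reads. Of the 903 called genes 5 passed the test. What the libraries of a collection share is not given in the labels. These p-values measure only the spread between libraries, and libraries of a collection are not independent of each other.

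Genes of the jasmonate pathway, the wound hormone made by lipoxygenases and allene oxide synthases, made up 5 of the 57, out of 27 fitted list members, a list chosen with earlier results of these data known. The lipoxygenase gene LOX (GRMZM2G156861, lox1 in RefSeq), which the list does not hold, had the smallest p. It had 10.5 and 129 CPM in zones 1 and 3 of C_3, and 1.97 to 15.2 CPM in the other 6 control libraries. It had 1.27, 3.61 and 11.5 CPM in UV_9 and 66.6, 136 and 436 CPM in UV_7 zone 2, UV_8 zone 2 and UV_8 zone 3. Thus, within each zone that held both kinds, C_3 was above and UV_9 below the others of its treatment. Across zones, C_3 zone 1 lay within the range of the other controls. The log2 differences were 2.90 ± 0.34 and -4.995 ± 0.40, with an interaction of -7.90 ± 0.51 and an adjusted p of 1.8e-05 by edgeR.

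TIFY proteins include the JAZ repressors, which jasmonate removes and whose genes it induces. TIFY25 had 24.6 and 30.1 CPM in C_3 against 0.504 to 9.51 CPM in the other controls, and 9.87 to 26.2 CPM in UV_9 against 74.4 to 98.9 CPM in UV_7 and UV_8, an interaction of -5.51 ± 0.88 (edgeR adjusted p = 0.025). TIFY15 behaved likewise at lower levels, with -5.13 ± 0.76 (edgeR adjusted p = 0.019). TIFY4 was at 1.34 to 5.72 CPM in all controls and in UV_9 and at 25.1 to 47.3 CPM in UV_7 and UV_8 (-4.23 ± 0.69, edgeR adjusted p = 0.027). The allene oxide synthase gene aos2 (-1.32 ± 0.24, edgeR adjusted p = 0.044) and the lipoxygenase gene lox10 (adjusted p = 0.035) completed the 5.

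Among other named genes, gpc4 (GRMZM2G176307), for a cytosolic glyceraldehyde-3-phosphate dehydrogenase, was at 115 and 158 CPM in C_3 and 33.2, 36.3 and 64.2 CPM in UV_9, against 120.0 to 249 CPM in the 9. Its difference was -0.42 ± 0.16 in C_3 and -2.07 ± 0.17 in UV_9, an interaction of -1.65 ± 0.22 (edgeR adjusted p = 0.011), which was lost in reads unique to a transcript (edgeR adjusted p = 0.457). CYP71C2, a cytochrome P450 gene of benzoxazinoid synthesis, was higher in C_3 by 1.97 ± 0.17 and in UV_9 by 0.29 ± 0.18 (edgeR adjusted p = 0.017 for the interaction, 0.144 in unique reads). Its relatives share sequence, so reads may be split between them. In the other direction, hir3, HP3 and bHLH165 were lower in C_3 and higher in UV_9, with interactions of 1.61 ± 0.26, 1.95 ± 0.32 and 2.24 ± 0.41 (edgeR adjusted p of 0.027, 0.027 and 0.044). In unique reads the value of HP3 turned to -0.35 (edgeR adjusted p = 0.954), and hir3 and bHLH165 were lost too (edgeR adjusted p of 0.542 and 0.15). Over 24 alternatives bHLH165 was not called in 17, hir3 in 13 and HP3 in 8. CER1 was at 112 CPM in UV_9 zone 3 and at 7.56 CPM or less in the other 13 libraries, so its interaction of 7.51 ± 0.96 (edgeR adjusted p = 0.0087, 0.0981 in unique reads) rests on 1 library. CER1 is a name that RefSeq gives to more than 1 gene.

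**Figure D5:**
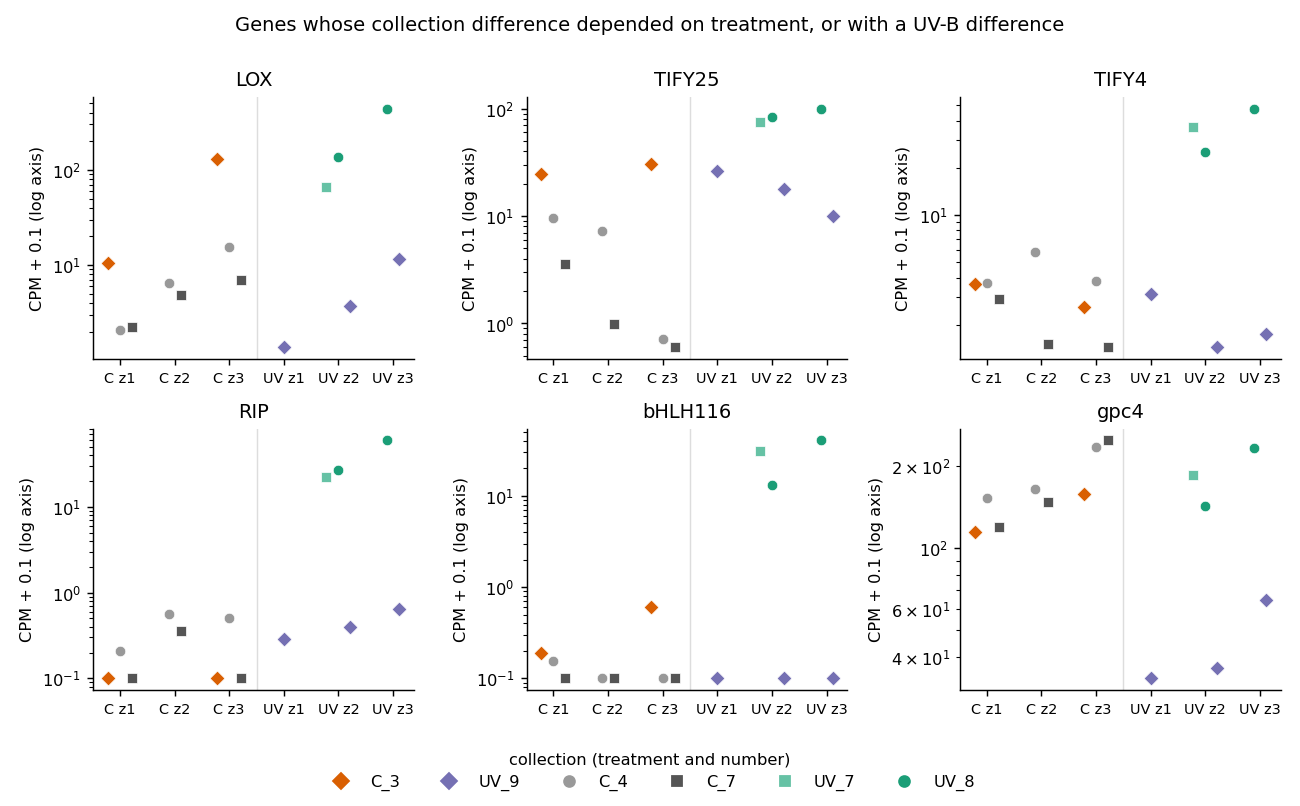
CPM plus 0.1 on a log axis for 6 genes in each of the 14 libraries, by treatment and zone, with 1 point per library coloured by collection. Within a zone, LOX and TIFY25 are above the other controls in C_3 and below the other UV-B libraries in UV_9. TIFY4, RIP and bHLH116 are high in UV_7 and UV_8 only, and gpc4 is low in UV_9.

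The interaction with zone asked whether the difference of the 5 libraries changed from zone 1 to zone 3. No gene passed an adjusted p under 0.05 by edgeR (0%), 1067 had an unadjusted p under 0.05, limma-voom called 0 and DESeq2 called 20. Zone itself, with the collections as a term, gave 15244 genes by edgeR (63.8%), 7447 higher in zone 3 (31.2%) and 7797 lower (32.6%). Of the 903 called genes, 568 passed this zone test. Among those called lower in C_3 and UV_9, 238 were higher in zone 3 and 82 lower, and among those called higher, 178 were higher in zone 3 and 70 lower.

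Once C_3 and UV_9 entered the fit as a term, 18 genes passed the edgeR test of UV-B against control (0.0753%), of which 13 had a positive change (0.0544%) and 5 a negative one (0.0209%). Without the term 7 genes passed (0.0293%), 5 positive (0.0209%) and 2 negative (0.00837%), all of them among the 18. The 18 became 7 without UV_8 zone 3, 10 without UV_8 zone 2, 11 without C_4 zone 3 and 10 in unique reads. Of the 903 called genes, 1 was among the 18. The 13 higher genes were above every control library in all 3 libraries of UV_7 and UV_8 in 12 cases, and in all 3 libraries of UV_9 in 2 cases. The term was itself drawn from these data, and UV_9 is 3 of the 6 UV-B libraries while C_3 is 2 of the 8 controls.

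RIP (GRMZM2G119705), named for ribosome-inactivating proteins, showed this. It had 22.1, 26.9 and 59.5 CPM in UV_7 zone 2, UV_8 zone 2 and UV_8 zone 3, and 0.189, 0.301 and 0.548 CPM in UV_9. In the controls it was at 0 in both libraries of C_3 and at 0.458 CPM or less in C_4 and C_7 (edgeR adjusted p = 8.5e-06 for UV-B with the term). MPI, a wound-induced proteinase inhibitor gene, had 19.7 to 24.0 CPM in UV_7 and UV_8, no read in the 5 libraries of C_3 and UV_9, and at most 1.59 CPM in other controls (edgeR adjusted p = 0.015). TIFY28 and bHLH116 were at most 0.0752 CPM in UV_9 and at 2.48 to 9.96 and 13.1 to 40.3 CPM in UV_7 and UV_8 (edgeR adjusted p of 0.0033 and 0.0088). In all 4 genes the libraries of UV_7 and UV_8 were far above every control, and those of UV_9 were at control levels of 0.548 CPM or less. The UV-B difference of these genes was thus one of UV_7 and UV_8 and was not shared by UV_9. Without the term, RIP, TIFY28 and MPI had adjusted p of 0.262, 0.455 and 0.55 by edgeR.

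The 5 lower genes had no informative name. In 4 of them every UV-B library was below all libraries of C_4 and C_7, but in none were all UV-B libraries below both of C_3. GRMZM2G375487, chosen after its values were seen, had 17.6 to 38.5 CPM in C_4 and C_7, no read in C_3 and 0 to 0.118 CPM under UV-B (edgeR adjusted p = 4.2e-05). An unnamed gene that was higher in all 6 UV-B libraries was GRMZM2G036640 (chromosome 1, 264587455 to 264589878), at 45.5 to 65.3 CPM in UV_9, 47.5 to 65.9 CPM in UV_7 and UV_8, and 15.2 to 22.1 CPM in all controls, C_3 included (log2 change 1.61 ± 0.13, edgeR adjusted p = 4.2e-05). In unique reads its adjusted p was 0.624 by edgeR.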

How the data were processed

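RNA of maize leaf zones was sequenced from stranded TruSeq mRNA libraries on a HiSeq 1500, per the labels' protocols. The authors deposited raw counts of reads per transcript, total and unique to a transcript, per the file headers. For the aligner, the counter and the genome build the entry is not given in the sources used here. Besides these, the table has 21 value columns of 3 libraries that the labels do not list, which were not used. Counts of total reads were summed from 62892 transcripts to 39145 genes, filtered by expression (23899 genes) and scaled by TMM. They were fitted with edgeR 4.0.16 (quasi-likelihood, Benjamini-Hochberg adjusted over all genes) in R 4.3.3, checked on simulated data. DESeq2 1.42.0 and limma 3.58.1 were alternatives. The 14 libraries entered each main fit, with zone, treatment and the collection split as terms. Names came from RefSeq records of Zm-B73-REFERENCE-NAM-5.0, which matched 18842 genes and gave 2767 an informative name, and its coordinates were not used.

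The members, lists and tests were chosen with earlier results of these data known. Named genes were the 10 largest differences in each direction among named called genes with a mean of 10 CPM, up to 4 per list with 5 CPM, every clock and heat shock member by range, and up to 4 named genes per direction of each test. Other names were added after their values were seen. Control libraries of the same replicate deviated together (r = 0.274 to 0.468), and the main fits held no term for replicate. Between control and UV-B libraries of the same replicate, r ran from -0.262 to 0.442, so replicates were not taken as pairs across treatments. Control and UV-B libraries that share a title number were not compared in this way. Nothing in the labels says whether libraries of a collection came from separate plants, and p-values measure only the spread between libraries. Alternatives covered scaling, filters, unique reads, fold limits, tools, left-out libraries and thinning to 1673416 reads.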

Additional observations from a re-analysis of the deposited data

Results flagged for a closer look

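The difference between a collection and the others of its treatment was not the same in C_3 and UV_9 for 57 genes, by edgeR's quasi-likelihood test of the interaction. The values here are the log2 difference in UV_9 minus that in C_3. For LOX it was -7.897, for TIFY15 -5.135, for CYP71C2 -1.683 and for gpc4 -1.649. In the other direction it was 7.511 for CER1, 2.244 for bHLH165, 1.947 for HP3 and 1.61 for hir3, and CER1 was high in a single library, UV_9 zone 3.

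Among genes without a name, the fitted values were 10.69 for GRMZM2G024527, 14.47 for GRMZM5G890847, -8.166 for GRMZM2G073219 and -13.8 for GRMZM2G054448. Except for GRMZM2G073219, these rest on libraries with no reads and are no bound on the difference. GRMZM2G024527 had no read in UV_7 and UV_8, 3.29 to 7.06 CPM in UV_9, 1.51 and 3.43 CPM in C_3 and 8.24 to 15.9 CPM in the other controls. GRMZM2G073219 had 12.1 and 19.1 CPM in C_3 against 0.168 to 1.97 CPM in the other controls, and 0.301 to 1.37 CPM in UV_9 against 5.43 to 9.75 CPM in UV_7 and UV_8.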

How the results depend on the processing

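Of the 903 genes of the collection difference, the number with UV_7 zone 3 kept was 425, 423 higher and 2 lower, since nothing can lie below the many genes at 0 in its 728 reads. It was 1645 at a log2 limit of 0.58, 267 at a limit of 2 and 2220 by fold alone. Alternatives chosen after seeing the data gave 3219 without collection C_3 and 1668 without collection UV_9, where fewer groups had to be free of overlap. Leaving out single libraries gave 860 to 1375, the most without C_3 zone 3. For C_3 alone, with 1735, the limits of 0.58 and 2 gave 3370 and 501, thinning gave 1135, and leaving out libraries gave 1496 to 4791, with 4791 without C_3 zone 1 and 2662 without C_3 zone 3. For UV_9 alone, with 3205, the numbers were 1822 with UV_7 zone 3 kept, 6293 and 905 at the 2 limits and 3050 to 4335 with libraries left out.

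The 57 genes of the interaction with treatment became 181 with no filter, 18 in unique reads, 475 by DESeq2 and 7 at an adjusted p of 0.01. With the replicate block 277 genes passed, of which 11 were among the 57, so that 46 calls were lost, with CYP71C2 at an adjusted p of 0.173, hir3 at 0.107, bHLH165 at 0.188, gpc4 at 0.21, TIFY15 at 0.133, GRMZM2G054448 at 0.0725, and CER1, GRMZM2G024527 and GRMZM5G890847 at 1 by edgeR. The 57 ran from 6 to 89 with libraries left out, with 6 without C_3 zone 3 or UV_9 zone 2, 8 without UV_8 zone 3 and 12 without C_3 zone 1. HP3 reversed to -0.35 in unique reads. LOX passed in all 24 alternatives, with adjusted p from 2.39e-42 to 0.000712 over edgeR, DESeq2 and limma-voom. The interaction with zone gave 20 genes by DESeq2 and 0 in every other alternative run. The 18 UV-B genes became 38 with no filter, 10 in unique reads, 54 by DESeq2, 8 by limma-voom, 7 without the collection term, 80 with the replicate block (all 18 among them), 11 when thinned, 47 without C_3 and UV_9, and 7 to 19 with libraries left out, the fewest without UV_8 zone 3. RIP, TIFY28 and MPI had adjusted p of 0.262, 0.455 and 0.55 by edgeR without the term. Where no construction above accounts for a change, the cause was not tested. The replicate block left 852 genes in the collection difference.

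With DESeq2's size factors every list kept its counts of called genes but sugar and starch, with 3 higher in place of 2, and only medians near 0 changed sign. In unique reads 2 of 3 clock, 5 of 6 HSP70 and HSP100 and 7 of 13 light harvesting genes were called, and when thinned 3 of 3, 5 of 6 and 8 of 12. The shallow libraries C_3 zone 3 and UV_9 zone 3 limit the precision of genes with few reads.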
